A study of Mus musculus with 35 samples.

Results

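Nkx2-1, Nkx2-2, Nkx2-4, Six3, Six6, Otp, Sim1 and Isl1 are transcription factors known from the making and upkeep of the hypothalamus, and their RNA was followed here through the hypothalamus, hippocampus and cortex of mice on 2 diets. These 8 genes of 54119 were chosen by name as factors of hypothalamic identity and selected on their levels by region in these same libraries, so their levels in the hypothalamus against the other regions are given as a description and without a test. The study took male C57BL/6JRj mice at 8 to 9 weeks of age and kept 1 group on standard chow (SC) and gave the other a diet rich in fat and sugar (58% HFHS) for 4 months. Brain tissue of 2 animals was pooled for each replicate, cells carrying the astrocyte surface antigen ACSA2 were held on magnetic columns, and their RNA was sequenced. The 35 libraries are 6 SC and 5 HFHS replicates of hypothalamus, 5 SC and 7 HFHS of hippocampus, and 6 SC and 6 HFHS of cortex. All animals were of the same strain and sex, the labels name no transgene, and no library stands for a single animal.

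Of the factors, 6 carry a homeodomain of the NK2, sine oculis or paired-like families, Isl1 joins such a domain to LIM domains, and Sim1 is a basic helix-loop-helix PAS protein. During development Six3 and Six6 help to set up the anterior forebrain, the eye field and the ventral hypothalamus, and Nkx2-1 marks the ventral hypothalamus and is needed for its formation. Otp and Sim1 act together in the neuroendocrine neurons of the paraventricular and supraoptic nuclei, and Isl1 is needed for arcuate neurons such as those that make Pomc. In the adult several of them stay on in tanycytes, the elongated cells that line the floor of the third ventricle, and in the pituitary that lies under it.

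The libraries held 47578560 to 65982495 estimated reads. Levels in CPM, reads scaled by library size and composition, are used to compare libraries, and levels in TPM, scaled by transcript length as well, to compare genes. The labels call the cells astrocytes. In the hypothalamus the 9 astrocyte markers measured, of a list of 10, summed to 2230 to 4070 CPM on SC and 3070 to 14200 on HFHS, against 13300 to 23800 in the cortex. The 9 oligodendrocyte markers summed to 49100 to 141000 CPM in the hypothalamus, so the sorted fraction was no pure astrocyte sample. In such bulk libraries, fewer cells of a type and less RNA per cell cannot be told apart. Hypothalamus and hippocampus cells passed over another column type and smaller volumes than cortex cells, so region and column cannot be told apart in comparisons with the cortex. In 3 libraries the RNA was assigned to shorter transcripts, with a mean of 1922.4 bases in cortex SC 6, 2178.7 in cortex HFHS 6 and 2483.4 in hypothalamus SC 6, against 2530.3 to 2985.5 in the others.

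Nkx2-1, Nkx2-4, Six3 and Six6 separated the hypothalamus from the other regions without overlap in both diets. Isl1 did so against the hippocampus on SC alone, Otp and Sim1 were near the limit of detection, and Nkx2-2 was as high in the hippocampus as in the hypothalamus. Over all genes tested, 10% differed between hypothalamus and hippocampus on SC (5.86% higher and 4.13% lower) and 36.1% between hypothalamus and cortex (17.7% higher and 18.3% lower) at an edgeR adjusted p under 0.05. These shares are given as background only, since region was used to choose the factors. By length-scaled level, the order in the hypothalamus was Nkx2-4 at 16.7 ± 13.5 TPM (SD, n = 11), Six3 at 16.1 ± 7.84, Nkx2-2 at 12.8 ± 3.40, Nkx2-1 at 6.77 ± 2.00, Six6 at 1.93 ± 0.692, Isl1 at 1.33 ± 0.892, Otp at 0.228 ± 0.219 and Sim1 at 0.0435 ± 0.0555. The first 3 did not differ from each other beyond their spread, and neither did Six6 from Isl1 or Otp from Sim1.

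Nkx2-1 (chr12:56531958-56536908, minus strand, GRCm38), the factor of the ventral forebrain, is also known from thyroid and lung. On SC its 6 hypothalamus libraries ran from 4.5 through a median of 7.79 to 9.69 CPM, and on HFHS its 5 libraries held 8.48, 7.15, 6.72, 12.2 and 7.99 CPM. In the hippocampus its level was 0.782 ± 0.540 CPM (n = 5) on SC and 0.752 ± 0.373 (n = 7) on HFHS, and in the cortex 0.209 ± 0.0785 (n = 6) and 0.233 ± 0.187 (n = 6). The lowest hypothalamus library thus stood above the highest library of both other regions, 1.33 CPM in the hippocampus and 0.609 in the cortex. The ratio of SC means was 9.61 over the hippocampus and 35.9 over the cortex. It had 239 to 751 reads per hypothalamus library, 10 to 80 in the hippocampus and 3 to 32 in the cortex.

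Nkx2-4 (chr2:147083316-147085445, minus strand), a close relative of Nkx2-1, was near the limit of detection outside the hypothalamus. Its hypothalamus libraries held 137 to 1713 reads. In the hippocampus no library had more than 3 reads, and 9 of 12 had 0. In the cortex 8 of 12 had 0 and the others at most 5, except HFHS 6, one of the libraries of short transcripts, with 25 reads or 0.626 CPM. A count of 0 allows up to 3 reads. On SC its mean was 11.5 ± 9.91 CPM (n = 6) in the hypothalamus, 0.0153 in the hippocampus and 0.0168 in the cortex, and on HFHS 12.4 ± 11.9 (n = 5), 0.00417 and 0.111. No ratio is given, since nearly all libraries of the other regions were at or under 3 reads. The spread of Nkx2-4 between hypothalamus libraries is taken up further on.

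Six3 (chr17:85613608-85629302, plus strand), which holds back Wnt signals in the anterior forebrain, and Six6 (chr12:72939892-72944899, plus strand), its relative of the eye, the suprachiasmatic nucleus and the reproductive axis, differed in how far they reached outside the hypothalamus. Six3 was at 19.5 ± 8.80 CPM (n = 6) on SC and 27.3 ± 14.4 (n = 5) on HFHS in the hypothalamus, and still at 3.14 ± 2.96 and 3.23 ± 1.61 CPM in the hippocampus and cortex on SC. The ratios of its SC means were 6.21 and 6.03, and no hypothalamus library, with 10.6 CPM as the lowest, overlapped either region. Six6 was at 3.99 ± 1.35 CPM on SC and 4.94 ± 1.82 on HFHS in the hypothalamus. In the hippocampus it was at 0.0481 ± 0.0515 CPM on SC, where 3 of 5 libraries had at most 3 reads, and at 0.290 ± 0.200 on HFHS, where each of the 7 libraries held reads. In the cortex 9 of 12 libraries held no Six6 reads and no library more than 7.

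Nkx2-2 (chr2:147177546-147194243, minus strand) went against its label. Besides patterning the ventral neural tube, this factor is known to drive the maturation of oligodendrocyte precursors. Its SC libraries ran from 9.62 through 11 to 16.8 CPM in the hypothalamus, 5.74 through 10.4 to 24.9 in the hippocampus and 4.16 through 7.52 to 11.3 in the cortex. The 3 ranges overlapped in both diets, and hypothalamus over hippocampus gave a ratio of means of 0.856 on SC and 1.09 on HFHS. Against the cortex the ratio was 1.59 on SC, or 0.67 on the log2 scale, and 1.13 on that scale from TPM. The 9 oligodendrocyte markers, which summed to 59600 to 103000 CPM in the SC hippocampus and 28000 to 81500 in the SC cortex, were also present in all regions, and their part in the level of Nkx2-2 between regions was not tested. On SC the 9 oligodendrocyte precursor markers summed to 1000 to 2400 CPM in the hypothalamus and 807 to 1860 in the hippocampus. In the SC cortex they summed to 235 to 767 CPM, and their part was not tested either. Within the hypothalamus Nkx2-2 had an r of -0.01 with the oligodendrocyte score and -0.001 with the precursor score (exact permutation, adjusted p = 0.998 for both). Libraries of 1 region cannot speak to differences between regions.

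**Figure D1:**
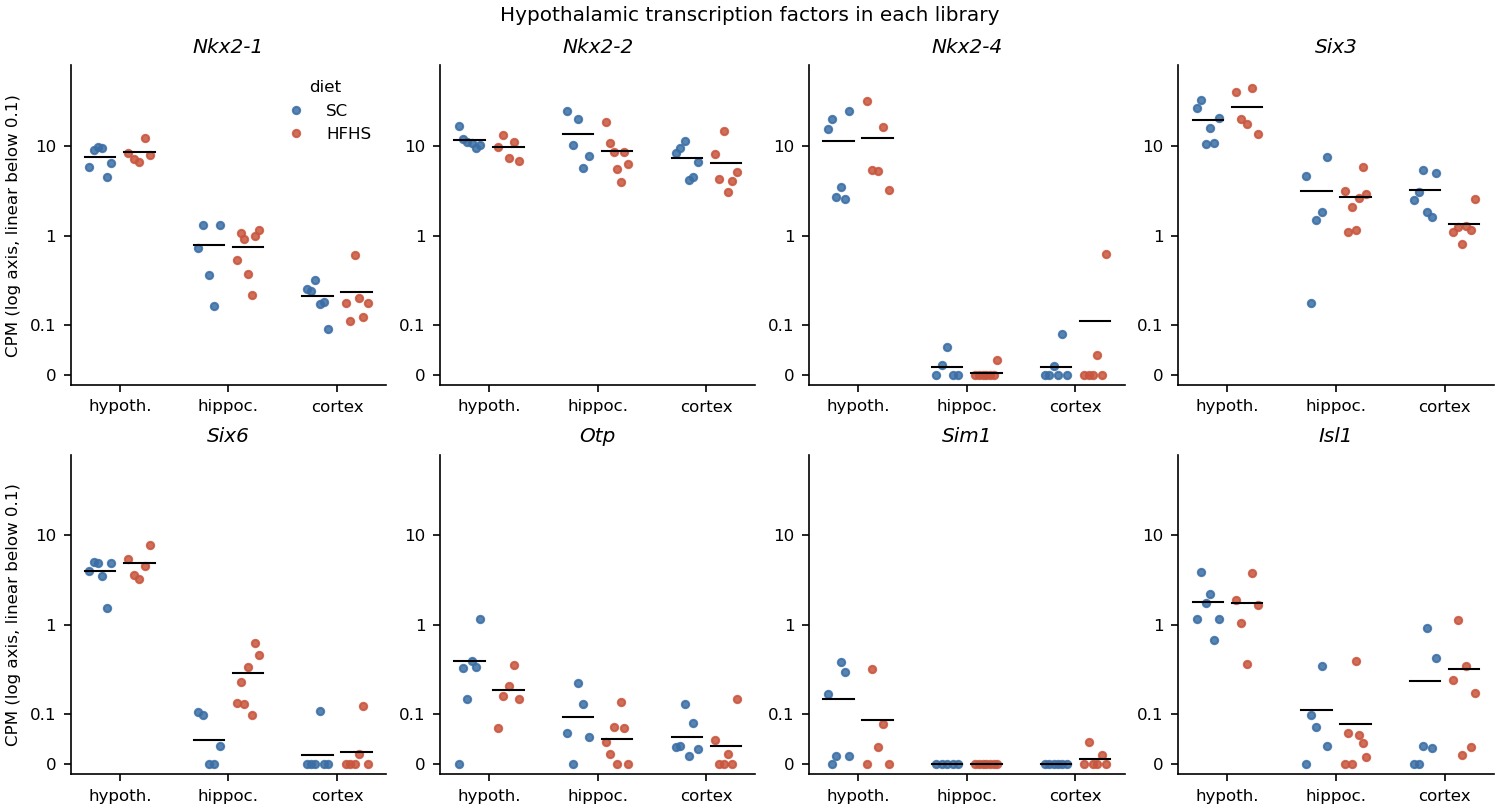
Level of each of the 8 factors in all 35 libraries, in CPM on a log axis that is linear below 0.1; each point is 1 library, blue for SC and red for HFHS, and black bars are group means. Nkx2-1, Nkx2-4, Six3 and Six6 stand apart in the hypothalamus in both diets, Nkx2-2 overlaps across regions, and Sim1 lies at 0 in all 12 hippocampus libraries.

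Otp and Sim1, the pair of the neuroendocrine nuclei, were barely measured. Otp (chr13:94875602-94885130, plus strand) had 0 to 68 reads per hypothalamus library, 0 to 12 in the hippocampus and 0 to 7 in the cortex. Its SC mean of 0.396 ± 0.402 CPM (n = 6) in the hypothalamus was carried by SC 6, at 1.16 CPM, while SC 1 had no read, and the ranges overlapped those of both other regions. Sim1 (chr10:50894754-50989152, plus strand) had 0 to 25 reads in the hypothalamus, none in any hippocampus library, and 2 and 1 in cortex HFHS 2 and HFHS 5 with none in the other cortex libraries. With a floor of 3 reads per library, its SC mean of 0.147 CPM was at least 2.60-fold higher in the hypothalamus than in the hippocampus and at least 2.53-fold higher than in the cortex. Of the 6 SC hypothalamus libraries 3 had at most 3 reads themselves, so these ratios of means rest on few libraries. Sim1 passed the filter on low counts in no comparison.

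Isl1 (chr13:116298281-116309689, minus strand) lay between these extremes. Its hypothalamus libraries held 1.17, 3.93, 1.77, 2.19, 0.678 and 1.18 CPM on SC and 1.88, 1.05, 0.363, 3.80 and 1.67 on HFHS. The SC mean of 1.82 ± 1.16 CPM was 16.4 times that of the hippocampus, without overlap. It was 7.62 times that of the cortex, where the libraries ran from 0 to 0.934 CPM on SC and to 1.13 on HFHS and overlapped the lower hypothalamus libraries. On SC the hippocampus libraries held 0 to 21 reads, with 2 of 5 at or under 3. The SC cortex libraries held 0 to 60 reads, with 4 of 6 at or under 3, so both ratios rest on few libraries.

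Most of the RNA came from 1 transcript per gene. In the SC hypothalamus, Nkx2-1-202 made up 90.8% of the TPM of its gene, Isl1-201 92.3%, and Six3-202 82.2%, with Six3-203 at 16.3%. Nkx2-2 was divided, with 66.9% in Nkx2-2-201 and 11.6% in the other coding transcript, Nkx2-2-203. Because the library kit keeps no strand, reads cannot be told apart where another gene overlaps on the opposite strand. Such neighbours are Gm26973 at Nkx2-1, Nkx2-2os and 6430503K07Rik at Nkx2-2, Six3os1 at Six3 and 4930447C04Rik at Six6. Six3os1 was itself at 5.81 ± 2.04 TPM (n = 6) in the SC hypothalamus, 1.74 ± 1.79 in the hippocampus and 1.48 ± 0.410 in the cortex, so like Six3 it was highest in the hypothalamus. Gm26973 was at 1.5 ± 0.802 TPM in the SC hypothalamus and at 0 in all SC libraries of the other regions.

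Between hippocampus and cortex, Nkx2-1 was higher in the hippocampus on SC by 1.84 ± 0.46 on the log2 scale, with 4 of the 5 hippocampus libraries above all cortex libraries. Its levels there, 0.782 and 0.209 CPM, were both far under those of the hypothalamus. Nkx2-2 differed by 0.86 ± 0.39 and Six3 by -0.07 ± 0.53. The edgeR test called Nkx2-1 alone of these 3, where it called 30.8% of 21574 genes, 15.4% higher and 15.3% lower in the hippocampus. The levels in these regions were known when the factors were chosen, so the call is a description and nothing is read from it. Six6, Otp, Isl1 and Nkx2-4 passed the filter on low counts through the hypothalamus and not in either of these regions on their own. No difference is read for them, and values given for them at the end only show how far they moved between settings.

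Of the other factors of the hypothalamus that were called, most were higher there. Of 44 further factors known from hypothalamic development, 37 could be tested between hypothalamus and cortex on SC, and 17 were higher and 3 lower in the hypothalamus at an edgeR adjusted p under 0.05, with a median log2 difference of 2.09 against 0.07 over all genes. Among them were Irx3 at 4.43 ± 0.50 and Irx5 at 5.14 ± 0.59, patterning factors with a homeodomain, and Gsx1, a progenitor factor, at 7.79 ± 1.01. Against the hippocampus 9 were higher and 1 lower, with a median of 1.53 against 0.02. Rax, which tanycytes keep through adult life, was among these, at 18.1 ± 7.88 CPM in the SC hypothalamus and 0.313 ± 0.236 in the hippocampus, a log2 difference of 5.82 ± 0.81 (edgeR adjusted p = 4.39e-05). Fits within 1 region kept 34 of the 44 factors in the hypothalamus, 23 in the hippocampus and 18 in the cortex. Part of the 37 thus passed the filter on low counts through the hypothalamus and could hardly come out lower there. The counts of higher and lower factors are a description.

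Factors of the telencephalon, the origin of cortex and hippocampus, went the other way. None of the 11 was higher in the hypothalamus, and 10 were lower than in the cortex, with a median of -3.32. Over all genes tested, 18.3% were lower than in the cortex. Emx2, a patterning factor of the cortex, was at 0.831 ± 0.592 CPM in the SC hypothalamus and 32.9 ± 4.95 in the SC cortex. Against the hippocampus 6 of 11 were lower, with a median of -1.80, where 4.13% of all genes were lower. Fits within 1 region kept 9 of the 11 in the hypothalamus, 11 in the hippocampus and 10 in the cortex. Part of the 11 thus passed the filter through the other regions and could hardly come out higher in the hypothalamus. These counts are a description as well. Of 10 genes made by neurons that depend on Otp, Sim1 or Isl1, 5 were higher in the hypothalamus than in the hippocampus and none lower. Avp, the vasopressin gene, led them at 3.12 ± 0.66 (edgeR adjusted p = 0.00259), followed by Pomc at 1.79 ± 0.49, Ghrh at 2.97 ± 0.84 and Agrp at 2.78 ± 0.86. Against the cortex 1 was higher, Avp, and 2 lower, Npy and Sst. Of 12 general neuron markers, 4 were higher than in the hippocampus and 0 lower, and 1 was higher than in the cortex and 5 lower. The pattern is thus not particular to the 10 genes. Over all genes tested, 5.86% were higher and 4.13% lower than in the hippocampus. Fits within 1 region kept 9 of the 10 in the hypothalamus and 8 in the hippocampus, so these counts are a description. Library size scaling moved the median of all genes to 0.43 against the cortex and called 5823 genes higher and 2032 lower there, where TMM scaling called 3827 and 3955. Against the hippocampus it called 1608 and 458, where TMM scaling called 1265 and 892. Against the cortex, this scaling called 22 of the 37 hypothalamic factors higher and 2 lower. Of the 10 neuronal genes it called 4 higher and 1 lower than in the cortex. Against the hippocampus it called 9 of the factors higher and 1 lower, and 5 of the neuronal genes higher and 0 lower.

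The diet comparison asks whether these factors change in the sorted cells after 4 months on HFHS. None of the factors that could be tested was called, 7 in the hypothalamus and 3 each in the hippocampus and cortex, where the edgeR test called 0% of 19272, 19036 and 17844 genes. At an unadjusted p under 0.05 the test passed 1639, 984 and 1652 genes, and Six3 in the cortex was the one factor among them. DESeq2 called 87, 15 and 504 genes, none of them one of the factors. In the hypothalamus the log2 difference of HFHS over SC was 0.17 ± 0.24 for Nkx2-1, -0.28 ± 0.23 for Nkx2-2, 0.47 ± 0.37 for Six3, 0.30 ± 0.32 for Six6, -0.08 ± 0.54 for Isl1 and -1.07 ± 0.86 for Otp. The 95% intervals ran from -0.35 to 0.69 for Nkx2-1, from -0.76 to 0.21 for Nkx2-2 and from -0.32 to 1.26 for Six3. For Nkx2-4, at 0.07 ± 0.71, the interval of -1.46 to 1.60 leaves room for a large change in either direction. The 44 further hypothalamic factors held no call in any region, and neither did the telencephalic factors or the neuronal genes.

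Six3 in the cortex came closest. Its SC libraries ran from 1.61 through 2.78 to 5.35 CPM (98 to 287 reads) and its HFHS libraries from 0.799 through 1.2 to 2.58 (42 to 103 reads). By CPM the groups overlapped, since HFHS 6, one of the libraries of short transcripts, stood above SC 1, SC 4 and SC 5. By TPM they did not, with 1.05 to 3.19 on SC and 0.511 to 0.917 on HFHS. The means were 3.23 ± 1.61 and 1.36 ± 0.621 CPM (n = 6 each), a log2 difference of -1.24 ± 0.40 (edgeR adjusted p = 0.285). Leaving out each library in turn gave -1.55 to -1.04 with no call. The difference from the hypothalamus was 1.75 ± 0.73 (edgeR interaction contrast, adjusted p = 0.345), and 0 of 21574 genes passed that test, with 2496 at an unadjusted p under 0.05 and 141 called by DESeq2. The interaction contrast of hypothalamus and hippocampus in edgeR likewise passed 0 of 21574 genes, while 433 had an unadjusted p under 0.05 and DESeq2 called 4. Six6 in the hippocampus, at 0.0481 CPM on SC and 0.290 on HFHS, did not pass the filter there and has no test.

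**Figure D2:**
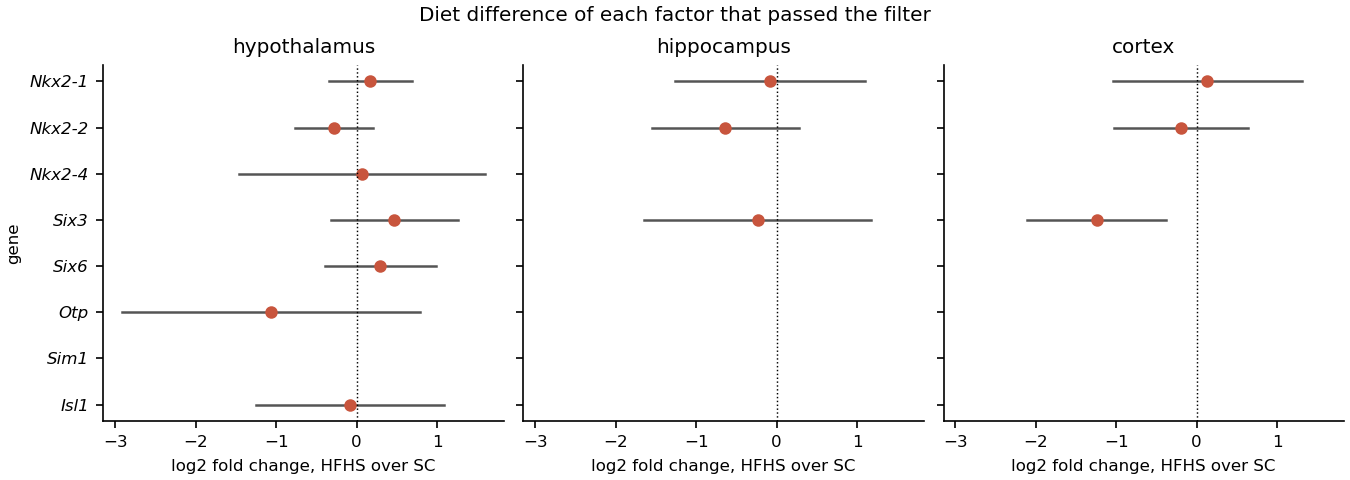
Log2 fold change of HFHS over SC for each factor that passed the filter on low counts, in 3 panels for hypothalamus, hippocampus and cortex; points are edgeR estimates and lines their 95% intervals. Every interval crosses 0 except that of Six3 in the cortex, which runs from -2.11 to -0.38 before adjustment over all genes.

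Within the hypothalamus, some factors differed widely between libraries of the same diet. For Nkx2-4 the 6 SC libraries held 15.5, 20.2, 2.67, 3.47, 2.58 and 24.8 CPM and the 5 HFHS libraries 31.6, 5.43, 5.25, 16.3 and 3.26. They lay in 2 sets, 6 libraries at 2.58 to 5.43 CPM and 5 at 15.5 to 31.6, with a 2.85-fold gap between them and both diets in each set. Six3 held 26.7, 32.5, 10.6, 16.0, 10.9 and 20.4 CPM on SC and 40.4, 19.9, 17.5, 45.0 and 13.6 on HFHS. The 5 libraries highest in Nkx2-4, namely SC 1, SC 2, SC 6, HFHS 1 and HFHS 4, were also the 5 highest in Six3, although Six3 itself showed no such gap. Because the libraries fall into sets, a correlation of Nkx2-4 over all 11 can rest on the gap between the sets. Those used further on are a description.

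Other genes moved with this pair. Crls1, the cardiolipin synthase of mitochondria, was among the 3 genes most like Nkx2-4 over the 11 hypothalamus libraries, with Basp1 and Marcks, membrane proteins of growing processes. Crls1 held 15.0 to 30.5 CPM in the 5 libraries high in Nkx2-4 and 1.42 to 3.69 in the other 6. Dapk3, a protein kinase picked out after its values were seen, held 30.6 to 37.2 CPM in those 5 libraries and 3 to 22.8 in the other 6. Dapk3 was just as uneven elsewhere, at 36.8, 0.47, 24.8, 0.905 and 23.2 CPM in the SC hippocampus. Six3 in these hippocampus libraries was at 4.59, 0.176, 1.5, 1.84 and 7.59 CPM. In the cortex Dapk3 ran from 1.98 to 33.5 CPM on SC and from 0.428 to 1.81 on HFHS, so there it moved with the diet.

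With the log2 level of Dapk3 as a covariate, added after the data were seen, Nkx2-4 in the hypothalamus rose by 0.88 ± 0.20 per doubling of Dapk3 (edgeR adjusted p = 0.107) and Six3 by 0.44 ± 0.10 (edgeR adjusted p = 0.102). Both slopes missed the threshold, which 90 of 19272 genes (0.467%) passed. In the hippocampus the slope of Six3 was 0.30 ± 0.11 (edgeR adjusted p = 0.262). The diet difference of Six3 under this fit was 0.57 ± 0.24 in the hypothalamus (edgeR adjusted p = 0.574), and 0 genes were called for diet in any region. In the cortex the difference of Six3 was -1.60 ± 0.74 (edgeR adjusted p = 0.215). All HFHS cortex libraries lay below all SC ones in Dapk3, so this fit can hardly tell diet and Dapk3 apart there. Nothing is read from its cortex values or from the lack of calls in that region. Whether these uneven levels of Dapk3, Crls1, Basp1 and Marcks, and with them those of Nkx2-4 and Six3, come from the cells or from the making and reading of the libraries was not tested, and this limits what the levels of Nkx2-4 and Six3 in a single library mean.

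**Figure D3:**
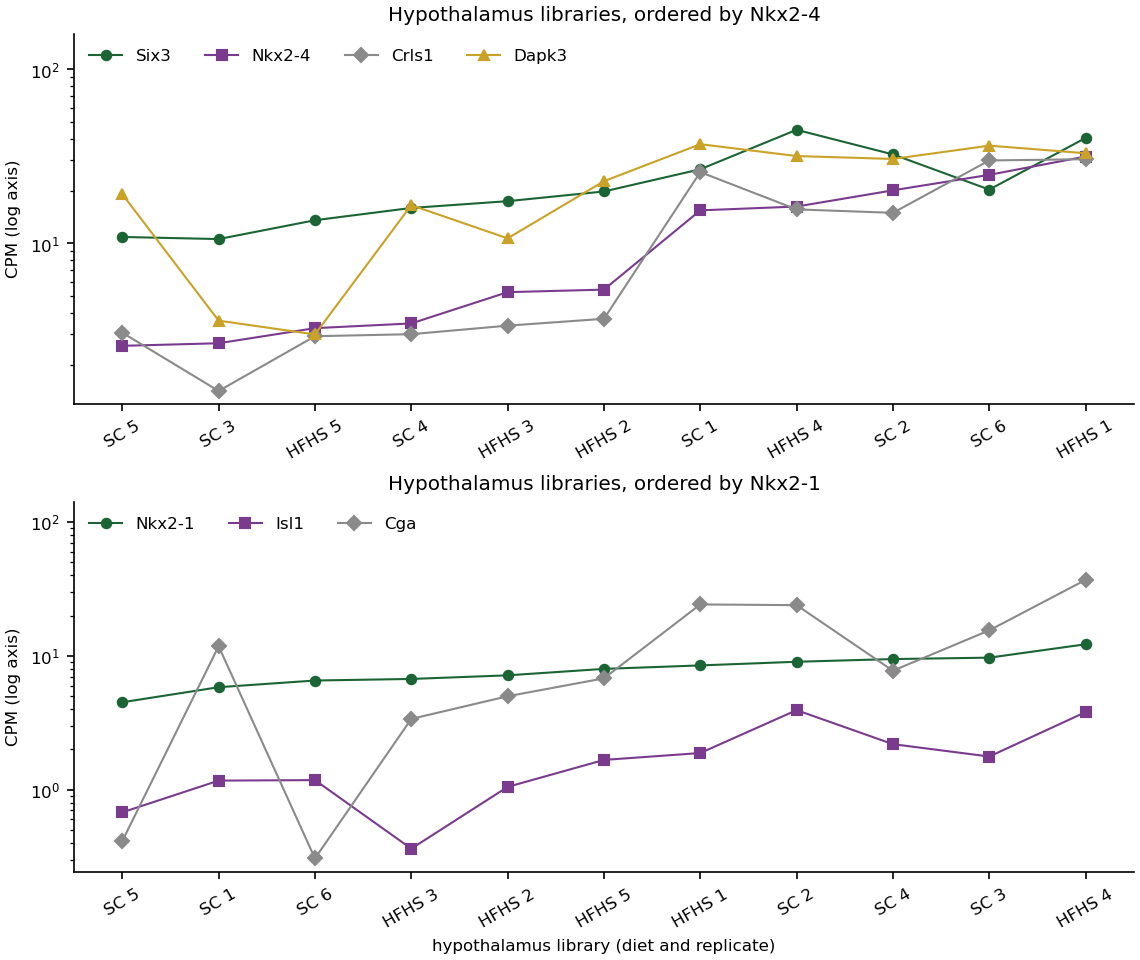
Levels in the 11 hypothalamus libraries in CPM on a log axis, each point 1 library and lines joining the points of a gene; the upper panel is ordered by Nkx2-4 with Six3, Crls1 and Dapk3, the lower by Nkx2-1 with Isl1 and Cga. In the upper panel Nkx2-4 steps from 5.43 to 15.5 CPM between HFHS 2 and SC 1, where Crls1 steps from 3.69 to 25.7; in the lower panel Isl1 is highest in the 5 libraries highest in Nkx2-1.

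The promoters of the pair are shown because the genes varied together while their base composition differs. They are the bases of the RefSeq window (from 250 before to 50 after the start, GRCm38.p6) that lie in no annotated exon and before the RefSeq start. The Six3 stretch lies inside the span of a longer annotated Six3 transcript that begins further upstream. Capitals mark the CCAAT box, read on both strands as CCAAT or ATTGG, which 37.4% of 32817 windows hold.
Nkx2-4 (chr2:147085446-147085595, minus strand): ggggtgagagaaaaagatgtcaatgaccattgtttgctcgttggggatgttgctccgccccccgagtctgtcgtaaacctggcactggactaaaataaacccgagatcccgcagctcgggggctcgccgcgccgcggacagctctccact
Six3 (chr17:85620584-85620789, plus strand): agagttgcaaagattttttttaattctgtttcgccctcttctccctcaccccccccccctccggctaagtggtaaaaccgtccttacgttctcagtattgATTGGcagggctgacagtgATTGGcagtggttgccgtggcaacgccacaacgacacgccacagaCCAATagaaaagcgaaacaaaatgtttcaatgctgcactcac
The Nkx2-4 window has 68.3% GC and 38 CpG, against a median of 52.7% and 7, and the Six3 window 50% and 14. Six3 has 3 CCAAT boxes and Nkx2-4 none. Neither window holds CAAGTG (bound by NK2 factors, in 13.6% of windows), TGATAC (Six3 and Six6, 5.46%), TAATTA (homeodomains, 5.30%) or TACGTG (Sim1 with its partner Arnt2, 3.23%) on either strand.

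A second pair, Nkx2-1 and Isl1, varied together in another order of libraries. The 5 libraries highest in Nkx2-1, namely SC 2, SC 3, SC 4, HFHS 1 and HFHS 4, were the 5 highest in Isl1. Over the 11 libraries, with diet means subtracted, r was 0.83 (exact permutation within diet, p = 0.00185, adjusted p = 0.0194 over 21 pairs) and rho 0.86 (p = 0.00238, adjusted p = 0.0471). Without the 2 libraries farthest from the median of Isl1, r was 0.81. Leaving out each library in turn gave an r of 0.77 to 0.89, under the threshold in 8 of 11 settings, with the highest adjusted p, 0.125, without SC 5. Nkx2-4 with Six3 was the other of the 21 pairs under the threshold, over libraries that lie in separate sets. Within the 6 libraries low in Nkx2-4, without subtraction of diet means, r was 0.949 and rho 0.943. That set was cut on the values of Nkx2-4 itself and holds both diets. Its SC libraries held 2.67, 3.47 and 2.58 CPM of Nkx2-4, and its HFHS libraries 5.43, 5.25 and 3.26. For Six3 these were 10.6, 16.0 and 10.9 CPM on SC and 19.9, 17.5 and 13.6 on HFHS. The part of diet in these correlations was not tested. For the 5 libraries high in Nkx2-4 alone no value is given. Over both sets the pair stayed under the threshold in 7 of 11 settings with a library left out. The highest adjusted p, 0.099, came without HFHS 5 (exact permutation).

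Isl1 also followed cell type markers. Of 70 relations between 7 factors and 10 cell type scores (mean log2 CPM of a marker list), 1 passed by Pearson's r, that of Isl1 with the 10 tanycyte markers, with r = 0.80 (exact permutation within diet, p = 0.000104, adjusted p = 0.00728) and rho 0.81 (adjusted p = 0.0382). Without the 2 libraries farthest from the median score r was 0.69, and without HFHS 3 the exact permutation gave an adjusted p of 0.0608. With the pituitary score r was 0.86 for Isl1 and 0.88 for Nkx2-1 (exact permutation, adjusted p = 0.0611 for both), and for Nkx2-1 with the tanycyte score 0.84 (exact permutation, adjusted p = 0.1). By Spearman's rho 3 passed, since Nkx2-1 with the tanycyte score had a rho of 0.88 and Isl1 with the pituitary score one of 0.87 (exact permutation, adjusted p = 0.0382 and 0.0453). For none of the 7 factors was the relation with the astrocyte score near the threshold (exact permutation, adjusted p = 0.998 for each). The tanycyte markers, all 10 of which were detected, summed to 231 to 482 CPM on SC and 313 to 383 on HFHS in the hypothalamus, with Col23a1 the highest. They summed to 63.9 to 344 CPM in the hippocampus and 223 to 451 in the cortex, so the sum alone does not mark the hypothalamus.

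The pituitary list of 9 genes summed to 2.25 to 34.2 CPM on SC and 9.01 to 71.5 on HFHS in the hypothalamus, against 2.14 to 6.37 in the hippocampus and 0.560 to 3.53 in the cortex. Cga, the common subunit of the glycoprotein hormones, ran from 0.307 CPM in SC 6 and 0.414 in SC 5 to 24.2 in HFHS 1 and 36.9 in HFHS 4. Pitx1, a factor of the pituitary primordium, reached 16.3 CPM in HFHS 4, and Tshb, the thyrotropin subunit, lay between 0.273 and 10.4 CPM. Tshb was not confined to the hypothalamus, with means of 2.74 CPM in the SC hippocampus, 2.24 in the HFHS hippocampus and 1.14 in the HFHS cortex. Prl, the prolactin gene that marks the anterior lobe, was at 0 in all hypothalamus libraries but HFHS 2, at 0.284 CPM, and Gh reached 0.243. Cga and Isl1 were both among the highest in SC 2 and HFHS 4 and among the lowest in SC 5, while SC 6 had the lowest Cga and an Isl1 of 1.18 CPM. The part of pituitary or tanycyte cells in the levels of Isl1 and Nkx2-1 was not tested.

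**Figure D4:**
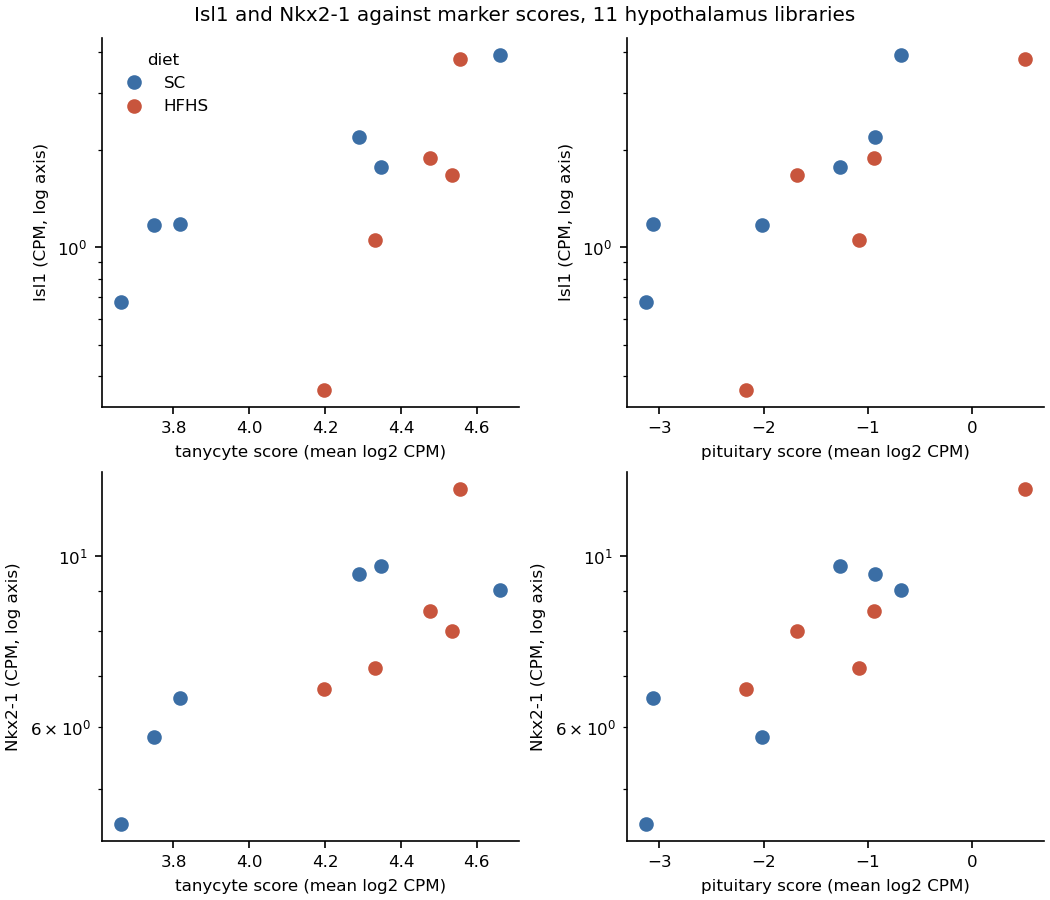
Isl1 (upper row) and Nkx2-1 (lower row) in CPM on a log axis against the tanycyte score (left) and the pituitary score (right), each the mean log2 CPM of a marker list; points are the 11 hypothalamus libraries, blue for SC and red for HFHS. Nkx2-1 is lowest in SC 5, which has the lowest tanycyte and pituitary scores, and HFHS 4 has the highest pituitary score with 3.80 CPM of Isl1 and 12.2 CPM of Nkx2-1.

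The promoters of this pair are shown for the same reason, from the same table.
Nkx2-1 (chr12:56536909-56537158, minus strand): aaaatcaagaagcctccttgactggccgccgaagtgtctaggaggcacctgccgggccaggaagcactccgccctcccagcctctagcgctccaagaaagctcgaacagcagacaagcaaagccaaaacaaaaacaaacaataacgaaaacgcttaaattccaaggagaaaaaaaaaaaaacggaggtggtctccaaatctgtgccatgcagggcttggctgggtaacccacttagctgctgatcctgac
Isl1 (chr13:116309690-116309938, minus strand): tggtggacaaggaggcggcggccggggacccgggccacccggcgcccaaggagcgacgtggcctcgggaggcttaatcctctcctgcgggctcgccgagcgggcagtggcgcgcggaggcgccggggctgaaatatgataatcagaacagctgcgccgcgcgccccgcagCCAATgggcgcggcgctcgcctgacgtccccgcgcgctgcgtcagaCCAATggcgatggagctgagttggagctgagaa
They have little in common by these counts, with 53.7% GC and 12 CpG for Nkx2-1 and 69.0% and 37 for Isl1. Isl1 has 2 CCAAT boxes, in capitals, and Nkx2-1 none, and neither window holds another of the motifs searched.

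The genes most like each factor differed with the set of libraries, and are given as a description. Over all 35 libraries and 13231 genes, Six6 was most like Nkx2-1 (r = 0.93), the one case in which a factor of the group had another as its nearest. Nkx2-4 and Six3 were both most like Col23a1, a tanycyte collagen on the marker list (0.94 and 0.89), Isl1 like Resp18 and Evpl (both 0.79) with Rax next at 0.79, and Nkx2-1 like Fhl1 (0.92). These values follow region, since the genes share high levels in the hypothalamus, such as 90.5 CPM of Col23a1 against 3.85 in the hippocampus and 3.74 in the cortex. Nkx2-2 was most like Fam222a, Ank and Hdac11 (0.85, 0.84 and 0.83). Fam222a was at 4.30 CPM in the hypothalamus and 4.03 in the hippocampus, and Ank and Hdac11 were higher in the hippocampus. Within the 11 hypothalamus libraries the lists changed. Nkx2-1 was then most like Epcam, an epithelial adhesion molecule (0.94), which ran from 1.40 to 26.8 CPM and was highest in HFHS 4. Isl1 was like Dtx3 (0.94) and Chgb, a granin of secretory granules (0.90). Six3 was most like Fam102b, Agap3 and Sox21 (0.94, 0.93 and 0.93), and Six6 like Chek1, Trp53 and Acp6 (0.93, 0.90 and 0.89).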

How the data were processed

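RNA of ACSA2-sorted cells was measured in 35 libraries, each a pool of 2 mice. The SMART-Seq v4 kit, per the labels' protocols, made the cDNA and keeps no strand. Per the submitters' processing notes, the authors ran FastQC and Salmon on build GRCm38, and the deposited files give each transcript an estimated count and its TPM. Their versions were not given in the sources used here. Among 140948 transcripts, 139852 matched GENCODE mouse release M21. The 1096 others, 0.214% to 0.535% of a library, are not used. Sums of the estimated counts were taken for 54119 genes and rounded, and TPM values were summed without change. Estimated counts that Salmon divides between paralogs such as Nkx2-1 and Nkx2-4 remain uncertain for the single gene.

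Counts were tested with edgeR 4.0.16 in R 4.3.3 (filterByExpr, TMM scaling, robust quasi-likelihood test, Benjamini-Hochberg adjustment over all genes tested, threshold 0.05). Diet was fitted within a region, and regions on SC and interactions in 1 model of all 6 groups. Each SE was taken from the fold change and its F statistic. CPM are TMM-scaled over all libraries, and log2 CPM carries a prior count of 2. A count of 0 was given a floor of 3 reads, which covers counting error only. Correlations used exact permutation within diet (86400 arrangements) in Python with scipy 1.17.1. The procedures were tested on simulated data. The total of 47578560 to 65982495 reads per library limits the precision of genes such as Sim1. No 2 libraries of a group were near-identical (highest r = 0.970), and since the labels do not say how pools were processed, p-values measure the spread between pools.

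The alternatives were DESeq2 1.42.0, RLE and library size scaling, no filter, limma 3.58.1 on log2(TPM + 1) with a mean of at least 0.1 TPM, a replicate block, and leaving out the 3 libraries of short transcripts or each library in turn. Genes named besides the 8 factors are up to 4 per list with the smallest p and the 3 most like each factor, some of which are not reported here. Dapk3, Cga, Pitx1, Tshb, Prl and Gh in the account of single libraries were chosen after their values were seen. The factors, lists, tests and alternatives were chosen with earlier results of these data known. Promoter sequences are from RefSeq (GRCm38.p6), where all 8 factors matched.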

Additional observations from a re-analysis of the deposited data

Results flagged for a closer look

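Of 29 groups of libraries in which a factor could be examined for a library far from the others, 2 held one, and chance alone gives about 1 in 20. Nkx2-1 was highest in cortex HFHS 3, at 0.609 CPM (32 reads), where the other 5 HFHS cortex libraries held 0.113 to 0.202 CPM. The gap to the next library was 0.679 of the whole range on the log2 scale. Six6 was lowest in hypothalamus SC 5, at 1.54 CPM (82 reads), where the other 5 SC libraries held 3.52 to 5.00 CPM and the gap was 0.699 of the range. The same library was also the lowest of the SC group in Nkx2-1 (4.5 CPM), Nkx2-2 (9.62 CPM), Nkx2-4 (2.58 CPM) and Isl1 (0.678 CPM).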

How the results depend on the processing

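No factor was called for diet under any alternative, while the number of genes called for diet moved from 0. In the hypothalamus it was 87 with DESeq2, 8 without the libraries of short transcripts and 0 to 8 with each library left out (8 without SC 6). In the hippocampus it was 15 with DESeq2 and 0 with each library left out. In the cortex it was 504 with DESeq2, 28 with RLE scaling, 32 without a filter, 412 with the replicate block, 515 without the short libraries and 0 to 141 with each left out (47, 141, 133 and 129 without SC 5, SC 6, HFHS 1 and HFHS 6). The interaction of hypothalamus and hippocampus gave 4 with DESeq2, and that of hypothalamus and cortex 141 with DESeq2, 299 with the replicate block, 475 without the short libraries and 0 to 180 with each left out, the highest without cortex HFHS 6. With each library left out, the region counts ran from 1298 to 2184 (hypothalamus against hippocampus, the lowest without hippocampus SC 1), 6872 to 7723 (against cortex) and 5512 to 6776 (hippocampus against cortex), where all libraries gave 2157, 7782 and 6636. Library size scaling called 1608 genes higher and 458 lower in hypothalamus than hippocampus, against 1265 and 892, and 4332 and 2186 between hippocampus and cortex, against 3332 and 3304; limma on TPM gave 7342 and 1418 for hypothalamus against cortex and 2274 and 523 against hippocampus. Between hippocampus and cortex, 2 factors were called with library size scaling and limma, and 1 to 2 with each library left out. Nkx2-2 was the second at 1.07 and 0.92.

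Cell type relations under the threshold numbered 2 with TPM, 2 without subtraction of diet means and 0 to 3 with each library left out (0 without HFHS 3), and pairs of factors 1 without that subtraction and 0 to 2 with each left out (0 without SC 5, HFHS 2 or HFHS 5). Of the factors' fold changes, 8 changed sign in settings other than leaving out 1 library, all of them with no call. These were Nkx2-4 for diet in the hypothalamus with library size scaling (-0.035), Nkx2-1 in the cortex with the replicate block (-0.012), Six3 in the hippocampus (0.19) and Nkx2-2 in the cortex (0.70) with Dapk3 as a covariate, and, between hippocampus and cortex, Nkx2-4 with limma (0.002) and Six3 with library size scaling (0.24), limma (0.056) and no short libraries (0.091). With each library left out, diet differences in the hypothalamus ran from -0.64 to 0.46 for Nkx2-4 and -0.56 to 0.31 for Isl1, in the hippocampus from -0.34 to 0.20 for Nkx2-1 and -0.54 to 0.40 for Six3, and in the cortex from -0.40 to 0.28 for Nkx2-1. Between hippocampus and cortex, where Nkx2-4, Isl1 and Six6 passed the filter only through the hypothalamus, they ran from -1.59 to 1.49 for Nkx2-4, -0.70 to 0.24 for Six3, -2.14 to 0.29 for Isl1 and 0.59 to 4.41 for Six6. The cause of these changes was not tested. The log2 ratio of Nkx2-2 between hypothalamus and cortex was 0.67, and 1.13 with TPM or 1 with library size. Whether replicate numbers pair libraries is not given by the labels, and the requirement that every same-numbered pair correlate above 0.1 was not met. It held for 10 of 16 pairs across diets (-0.043 to 0.546) and 11 of 32 across regions, so a shared source of some numbers cannot be told from the data.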
